A study of Homo sapiens with 6 samples.

Results

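Microtubules are hollow polymers of alpha and beta tubulin, and human cells make each subunit from a family of genes, the isotypes, whose coding sequences are much alike. Isotypes differ mainly in the acidic tail at the end of the protein, where most tail-modifying enzymes act, and in the tissues that use them: TUBB2B, TUBB3, TUBB4A and TUBA1A are best known from neurons, while TUBB, TUBB4B, TUBA1B and TUBA1C are made by most dividing cells. Cells also hold total tubulin mRNA in check by a feedback in which the protein TTC5 reads the first residues of new tubulin chains and marks their mRNA for decay.

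The 10 alpha and beta tubulin isotype genes described here are TUBB2B, TUBB2A, TUBB3, TUBB, TUBB4A, TUBB4B, TUBB6, TUBA1A, TUBA1B and TUBA1C, out of 57914 genes in the table, which lists 20 protein-coding alpha and beta tubulin genes in all. They were taken by gene name, and TUBB2B leads them because it was chosen by its measured rise in counts and TPM in ALDH_High. Its difference between the groups is therefore a description and carries no test, while the other 9 were chosen as members of the family. RNA came from A375, an established human melanoma cell line grown in high-glucose medium with fetal serum. Its cells were labelled with Aldefluor, which aldehyde dehydrogenases (ALDH) turn fluorescent, and sorted into the top 5% (ALDH_High) and the bottom 5% (ALDH_Low) of the signal, with 3 libraries each. Both groups are sorted fractions of 1 cell line with no added gene or drug, and because nothing says that the libraries came from separate cultures, p-values measure only the spread between these libraries.

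Total counts lay between 26692868 and 37830603 per library. Of 17047 genes tested, 20.6% were called between the groups, 10.8% higher and 9.83% lower in ALDH_High. No library pair of a group agreed within sampling noise, with chi-square per degree of freedom of at least 12.1. ALDH_High library 1 stood apart on the second principal component, at 49.1 against -22.0 and -32.5 for the other ALDH_High libraries. Results that move with it are therefore given without it as well, or by library. Of the 9 melanocyte lineage markers, SOX10 was abundant at 397 TPM in ALDH_High and 111 TPM in ALDH_Low, and S100B had 56.5 and 2.81 TPM, whereas MITF, the lineage's regulator, was called lower with 6.16 and 11.3 TPM (edgeR log2 fold change -0.92, adjusted p 0.00667). GPR143 (0.297 and 0.457 TPM, not called) and the pigment genes PMEL, MLANA, TYR, TYRP1 and DCT were below 1 TPM in the mean of either group. Of the 5 lineage markers tested, 2 were called higher and 1, MITF, lower, beside 20.6% of all genes called.

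The sequences of the class II beta genes TUBB2A and TUBB2B come first because they set how well the 2 genes can be told apart. Over the 1338 coding bases, stop codon included, the genes differed at 25 positions (98.1% identity, global alignment of the GENCODE 44 canonical transcripts). The last 90 coding bases, which encode the tail, are shown with capitals at the positions where the class II genes differ, and those of TUBB3, the class III gene, are shown for contrast.
TUBB2B: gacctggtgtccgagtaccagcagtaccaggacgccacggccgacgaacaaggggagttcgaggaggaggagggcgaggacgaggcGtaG
TUBB2A: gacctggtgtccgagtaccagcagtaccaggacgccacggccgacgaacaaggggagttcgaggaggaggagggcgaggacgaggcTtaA
TUBB3: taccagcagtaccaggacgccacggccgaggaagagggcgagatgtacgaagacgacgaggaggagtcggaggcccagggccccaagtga

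The class II tails differ at 2 of these 90 bases, while TUBB3 matched TUBB2B over its whole coding sequence at 87.4% of aligned positions. Every one of the 10 genes also carries the start that the TTC5 feedback reads, with the fourth codon in capitals in these examples.
TUBB2B start: atgcgtgagATC
TUBB4A start: atgcgggagATC
TUBA1A start: atgcgtgagTGC

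All 7 beta isotypes encode Met-Arg-Glu-Ile there and all 3 alpha isotypes Met-Arg-Glu-Cys. The near identity matters for counting. Of the 50-base windows along the TUBB2B transcript, 49.8% occur letter for letter in a TUBB2A transcript, and of those along TUBB2A, 59.5% occur in TUBB2B. At 100 bases the shares are 44.6% and 53.7%. The deposited counts do not say how reads from such stretches were assigned, so part of the signal of either gene is uncertain. The alpha genes are alike too: 47.3% of the 50-base windows of TUBA1A, 62.7% of those of TUBA1B and 26.8% of those of TUBA1C occur in transcripts of other genes, against 54.9% for TUBB2B. TUBB4A shares 6.73% and TUBB6 1.09% with transcripts of any other gene, and neither shares a 100-base window.

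TUBB2B (ENSG00000137285) lies on chromosome 6 from 3223324 to 3231730 on the minus strand (GRCh38, GENCODE 44), in 4 exons. TUBB2A (ENSG00000137267) lies beside it from 3153497 to 3157544 on the same strand, with 65779 bases between the genes that hold the pseudogene TUBB2BP1 and the non-coding LINC02525. The 250 bases before each start in RefSeq (GRCh38.p14) are printed because the 2 neighbours were both higher in ALDH_High. The RefSeq start of TUBB2B lies inside its GENCODE span given above, and so do the 250 bases printed for it. Those of TUBB2A lie directly before its GENCODE span. Capitals mark GCCNNNGGC, the palindrome recognised by TFAP2 factors, searched on both strands together with 5 other motifs.
TUBB2B promoter, chr6:3227654-3227903, minus strand: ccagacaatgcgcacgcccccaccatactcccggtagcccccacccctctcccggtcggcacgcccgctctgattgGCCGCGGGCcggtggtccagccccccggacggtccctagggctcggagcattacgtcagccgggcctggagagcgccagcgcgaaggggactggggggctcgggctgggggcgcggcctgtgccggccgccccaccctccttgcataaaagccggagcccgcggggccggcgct
TUBB2A promoter, chr6:3157545-3157794, minus strand: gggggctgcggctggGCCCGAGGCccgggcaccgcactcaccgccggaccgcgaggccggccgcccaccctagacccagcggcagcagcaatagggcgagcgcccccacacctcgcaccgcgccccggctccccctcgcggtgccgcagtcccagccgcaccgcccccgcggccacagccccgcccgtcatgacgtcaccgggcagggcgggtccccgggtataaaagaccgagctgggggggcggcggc

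GCCNNNGGC starts 174 bases before the TUBB2B start, overlapping a reversed CCAAT by 1 base, and 235 bases before that of TUBB2A. It occurs in 4 of the 16 RefSeq promoters of the 10 isotypes and in 19.8% of 35116 promoters of the same length. CCAAT, a common box of housekeeping promoters, occurs in 10 of the 16 against 32.0% of all, and GGGCGG in 9 against 42.6%. TATAAA occurs in that of TUBB2A alone among the 16, against 10.7% of all. ACAAAG, a core read by SOX factors, occurs in 3 against 13.7%, and CACGTG in 3 against 6.35%, neither of them in a class II gene. Some of the 16 promoters are alternative starts of the same gene, and overlapping TUBA1C promoters hold the same CCAAT, which is counted in each. By gene, CCAAT occurs in 8 of the 10 isotypes and GGGCGG in 8. All of these motif counts are matches of letters, not measured binding.

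TUBB2B was scarce in ALDH_Low and moderate in ALDH_High. Its level was 20.2, 22.5 and 23.0 TPM (transcript abundance scaled to library total and gene length) in ALDH_High libraries 1, 2 and 3 and 1.90, 1.52 and 1.92 TPM in ALDH_Low libraries 1, 2 and 3, from 729, 997 and 983 counts against 98, 61 and 76. All ALDH_High libraries lay above all ALDH_Low libraries, and ALDH_High library 1 was the lowest of its group in TPM. In CPM (counts scaled to library size with TMM factors, not to length) the means were 28.8 ± 0.0535 and 2.44 ± 0.357 (SD, n = 3), an edgeR log2 fold change of 3.56 (SE 0.16), or 11.8-fold. It ranked 121 by rise among all genes tested.

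TUBB2A, the other class II gene, rose 1.53-fold. It had 74.3, 69.5 and 66.7 TPM in the ALDH_High libraries and 43.6, 44.6 and 44.9 TPM in the ALDH_Low libraries, which do not overlap. Its edgeR log2 fold change was 0.62 (SE 0.12) with an adjusted p of 0.00522. In CPM the 2 genes differed between the groups by almost the same amount, 26.4 for TUBB2B and 26.3 for TUBB2A. Summed they had 105 ± 9.29 CPM in ALDH_High and 51.9 ± 2.55 in ALDH_Low (SD, n = 3). In TPM, which is scaled to length, the amounts were less alike. The means in ALDH_High and ALDH_Low were 21.9 and 1.78 TPM for TUBB2B and 70.2 and 44.4 TPM for TUBB2A. The part that reads shared by the pair play in the rise of TUBB2A was not tested. The TPM ratio of TUBB2B to TUBB2A was 0.273, 0.324 and 0.346 in ALDH_High and 0.0436, 0.0342 and 0.0427 in ALDH_Low. The neighbours on the opposite strand did not rise: PSMG4, which overlaps TUBB2B, fell (log2 fold change -0.50, SE 0.14, edgeR adjusted p 0.0309), and BPHL, which overlaps TUBB2A, had -0.16 (adjusted p 0.687). TUBB2BP1 between them had at most 9 counts in a library. The library kit keeps strand, but whether the counting used it is not given in the sources used here.

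**Figure D1:**
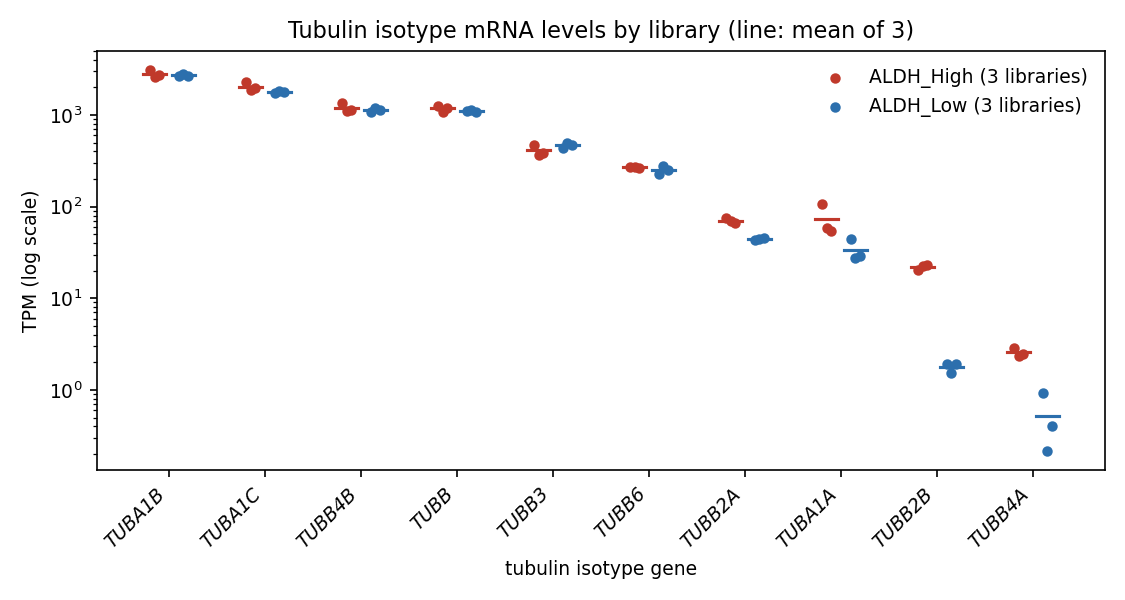
TPM of the 10 tubulin isotypes (log scale) in each of the 3 ALDH_High and 3 ALDH_Low libraries, ordered by the ALDH_Low mean, with a line at each mean. The groups do not overlap for TUBB2B, TUBB2A, TUBA1A and TUBB4A at the scarce end of the family, nor, narrowly, for TUBA1C (1862 to 2294 TPM against 1720 to 1846 TPM). TUBB2B was chosen for its rise, and TUBA1C does overlap in CPM. In CPM the groups do not overlap for 37.8% of all genes tested, and the same share in TPM was not computed.

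TUBB4A (ENSG00000104833, chromosome 19, 6494319 to 6502848), the class IVa gene of neurons and myelinating glia, was the scarcest of the 10 and rose as well. It had 2.85, 2.36 and 2.47 TPM in ALDH_High and 0.928, 0.217 and 0.402 TPM in ALDH_Low, from 117, 119 and 120 counts against 55, 10 and 18. The log2 fold change was 2.23 (SE 0.44, edgeR adjusted p 0.00534). ALDH_Low library 1 lay nearest to the other group, and without it the value was 2.98. In limma on log2(TPM + 1) it was 1.26 (adjusted p 0.0108), a scale that understates the change of low genes.

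TUBA1A (ENSG00000167552, chromosome 12, 49184686 to 49189080), the alpha isotype of postmitotic neurons, had 106, 58.6 and 54.6 TPM in ALDH_High and 44.7, 27.8 and 29.1 TPM in ALDH_Low. The groups did not overlap, and library 1 was the highest in both. The log2 fold change was 1.09 (SE 0.29, edgeR adjusted p 0.0244), and 0.66 without ALDH_High library 1, with an adjusted p of 0.0337. The call was lost without ALDH_Low library 2 (0.95, edgeR adjusted p 0.0954), without ALDH_Low library 3 (1.01, 0.109) and in limma on log2(TPM + 1) with no TPM filter (1.05, 0.120), over a range of 4.56e-13 to 0.120 in 15 alternatives. With the replicate block the log2 fold change was 1.03 (edgeR adjusted p 0.000809). TUBA1A overlaps TUBA1C on the opposite strand.

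Of the 9 isotypes other than TUBB2B, 3 were thus called higher and 0 lower in edgeR, beside 20.6% of all genes called. No other isotype had an unadjusted p under 0.05, and DESeq2 and limma on log2(TPM + 1) also gave 3 higher and 0 lower. The 2 proportions, 33.3% and 20.6%, were not tested against each other. In CPM the groups did not overlap for the same 3, beside 37.8% of all genes tested. The median log2 fold change of the 9 was 0.065, and that of all genes tested -0.013. TUBB2A and TUBB4A were called in all 15 alternatives, at edgeR, DESeq2 or limma adjusted p of up to 0.0281 and 0.0352.

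**Figure D2:**
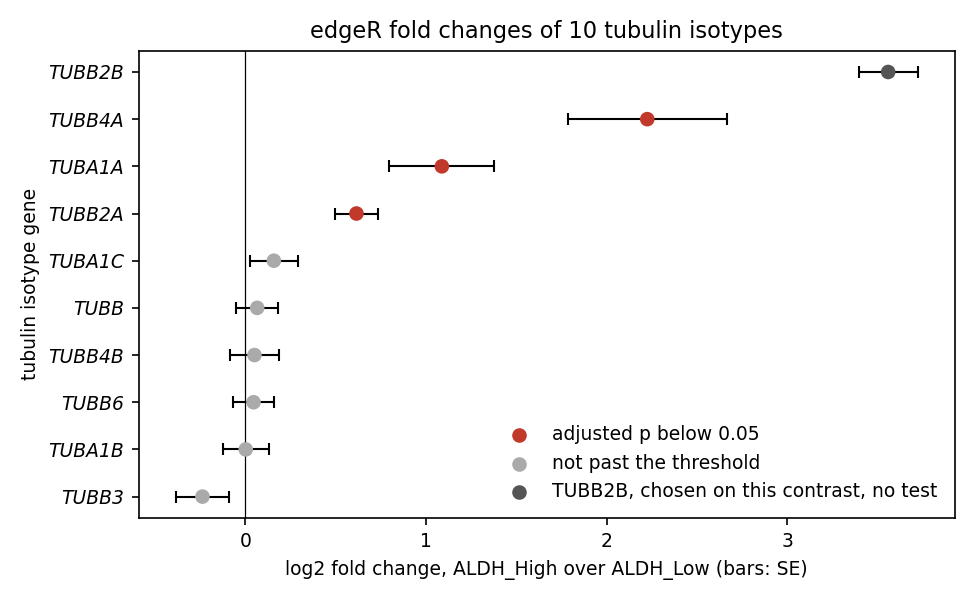
edgeR log2 fold change, ALDH_High over ALDH_Low, of each isotype with its standard error. TUBB4A (2.23), TUBA1A (1.09) and TUBB2A (0.62) passed the threshold, TUBB2B (3.56) is shown without a test, and the other 6 lie between -0.24 and 0.16.

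The 6 abundant isotypes did not pass the test, with edgeR adjusted p from 0.311 to 0.995. TUBA1B, with 3110, 2576 and 2708 TPM in ALDH_High and 2692, 2801 and 2653 TPM in ALDH_Low, had a log2 fold change of 0.0016 (SE 0.13). TUBA1C, with 2294, 1862 and 1970 TPM against 1720, 1846 and 1770 TPM, did not overlap in TPM but did in CPM, and had 0.16 (SE 0.13), adjusted p 0.467. TUBB, the class I gene, had 0.065 (SE 0.12), TUBB4B, the class IVb gene, 0.050 (SE 0.14), and TUBB6, the class V gene, 0.045 (SE 0.11). Those of TUBA1B and TUBB6 turn negative with upper-quartile scaling (-0.048 and -0.0043). Without ALDH_High library 1, TUBB had -0.027, TUBB4B -0.096, TUBB6 -0.00038, TUBA1B -0.13 and TUBA1C 0.020. No direction is therefore given for TUBB, TUBB4B, TUBB6 and TUBA1B. ALDH_High library 1 was the highest of the 6 libraries for TUBA1B, TUBA1C, TUBB and TUBB4B.

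TUBB3 (ENSG00000258947, chromosome 16, 89921392 to 89938761), the class III isotype of neurons, had 476, 368 and 385 TPM in ALDH_High and 440, 498 and 473 TPM in ALDH_Low. The groups overlapped through ALDH_High library 1, and the log2 fold change was -0.24 (SE 0.15, edgeR adjusted p 0.311, 0.0136 to 0.685 over 15 alternatives). Without ALDH_High library 1 it was -0.41 and past the threshold (edgeR adjusted p 0.0136), the only one of the 15 to make this call. The readthrough gene AC092143.1 covers TUBB3 on the same strand and holds 92.8% of its 50-base windows, but had at most 58 counts in a library beside at least 14643 for TUBB3.

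By TPM, the order in ALDH_High was TUBA1B, TUBA1C, TUBB4B, TUBB, TUBB3, TUBB6, TUBA1A, TUBB2A, TUBB2B and TUBB4A. The ranges of neighbours overlapped for TUBB4B with TUBB and for TUBA1A with TUBB2A. In ALDH_Low the order was the same except that TUBB2A stood above TUBA1A, and the same 2 pairs overlapped. The rise of TUBB2B therefore left its place in the order as it was, between TUBB4A and the pair of TUBB2A and TUBA1A.

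The isotypes together held 8981, 7431 and 7809 TPM in ALDH_High and 7330, 7803 and 7438 TPM in ALDH_Low, or between 0.733% and 0.898% of all TPM in a library. Without TUBB2B the sum was 8052 ± 810 in ALDH_High and 7522 ± 248 TPM in ALDH_Low (SD, n = 3), and the groups overlapped (exact two-sided permutation test p = 0.5, where 3 against 3 libraries cannot give less than 0.1). The difference of 530 TPM was 74.97 TPM without ALDH_High library 1, 851 TPM without ALDH_High library 2 and between 433 and 669 TPM without any 1 of the others. The ratio of summed alpha to summed beta TPM, without TUBB2B, was 1.56 ± 0.0289 in ALDH_High and 1.51 ± 0.0339 in ALDH_Low (SD, n = 3, exact permutation p = 0.3). By library it was 1.60, 1.54 and 1.55 in ALDH_High and 1.55, 1.49 and 1.49 in ALDH_Low.

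Within that sum the makeup differed. TUBB2B made up 0.225%, 0.303% and 0.295% of the summed TPM of the 10 isotypes in ALDH_High and 0.0259%, 0.0195% and 0.0258% in ALDH_Low. TUBB2A made up 0.872 ± 0.0566% and 0.590 ± 0.0164%, TUBA1A 0.890 ± 0.257% and 0.452 ± 0.137%, and TUBB4A 0.0317 ± 7.21e-05% and 0.00695 ± 0.00512% (SD, n = 3). TUBB2B was thus well under 1% of tubulin mRNA in every library. The difference in the TUBA1A share was 0.44 percentage points, and 0.29 without ALDH_High library 1.

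Shares remove differences that all isotypes of a library have in common, and on this scale the groups no longer overlapped for TUBB3. It held 5.30%, 4.95% and 4.93% in ALDH_High and 6.01%, 6.38% and 6.35% in ALDH_Low, so every ALDH_High library lay below every ALDH_Low library. Among the abundant isotypes TUBA1B also held less in ALDH_High, 34.7 ± 0.0226% against 36.1 ± 0.558%, and TUBA1C held more, 25.3 ± 0.243% against 23.6 ± 0.168% (SD, n = 3). The TUBA1C difference was 1.64 percentage points in TPM and 1.19 in TMM-scaled CPM. TUBB, TUBB4B and TUBB6 overlapped, at 14.7% and 14.6%, 14.9% and 15.03%, and 3.36% and 3.36% in the means of ALDH_High and ALDH_Low. With TUBB2B left out of the sum, the groups did not overlap for 6 of the 9 shares, each with an exact two-sided permutation p of 0.1, the smallest possible (0.15 adjusted over the 9). Shares of 1 sum depend on each other, so they are not 6 separate results.

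**Figure D3:**
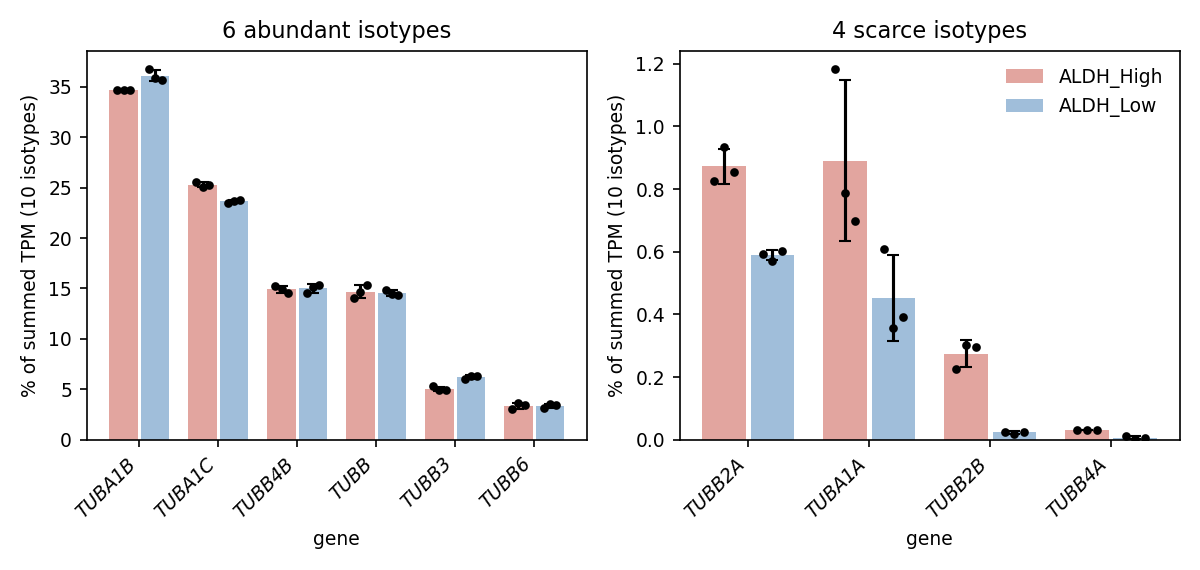
Percent of the summed TPM of the 10 isotypes held by each, on separate scales for the 6 abundant and the 4 scarce isotypes, as mean (bar), SD (error bar) and single libraries (points). All 4 scarce isotypes held more in ALDH_High, and TUBB3 held 5.06% in ALDH_High against 6.25% in ALDH_Low.

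The authors' deposited table also sets 4 groups against a group named 1A3, in a DESeq2 model of 5 groups. The names CAS, OUT1A3 and 1A3 are not explained in the sources used here and their libraries were not analysed here. In the authors' deposited table TUBB2B had log2 coefficients of 5.88 (SE 0.43) for HIG, 2.30 (SE 0.44) for LOW, 4.66 (SE 0.43) for CAS and 5.48 (SE 0.53) for OUT1A3. All 4 groups, LOW included, thus lay above 1A3, which they share as reference. For TUBB6 the authors' deposited table gives 1.06, 0.99, 1.08 (SE 0.26 each) and 1.40 (SE 0.35) in the same order, with HIG and LOW 0.065 apart. For TUBB4A the authors' deposited table gives 0.98 (SE 0.62), -1.29 (SE 0.64), 0.60 (SE 0.62) and 1.40 (SE 0.82). For TUBA1A it gives 1.06, -0.054, 1.29 (SE 0.58 each) and 2.17 (SE 0.78).

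The other tubulins did not move by the test. Of the 12 listed, 5 were tested and 0 passed in edgeR in either direction (0 at an unadjusted p under 0.05, and 0 in DESeq2 and limma): TUBG1 and TUBG2, the gamma tubulins that seed microtubules, had log2 fold changes of 0.075 and -0.063, the delta and epsilon tubulins of centrioles, TUBD1 and TUBE1, 0.40 (edgeR adjusted p 0.162) and 0.19, and TUBA8 0.099. TUBD1 had 7.77, 7.84 and 10.2 CPM in ALDH_High and 6.15, 6.73 and 6.69 CPM in ALDH_Low, which do not overlap. Among the rest, TUBB1 of platelets had at most 23 counts in a library, TUBA4A 14, TUBAL3 5, TUBB8 4 and TUBA3C 1, and TUBA3D and TUBA3E had 0 counts.

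The machinery that makes and reads tubulin was described from 6 lists of named genes, in which 22 of 104 tested genes passed, 12 higher and 10 lower (21.2%, beside 20.6% of all genes). A seventh list, of mitosis genes, is given after them, and with it 34 of 126 tested genes passed (27%). Folding factors were nearly flat. Of 21 prefoldin, chaperonin and tubulin cofactor genes and TTC5 tested, 0 were higher in edgeR (1 at an unadjusted p under 0.05, 0 in DESeq2 and limma) and 1 was lower, the prefoldin subunit PFDN6 (log2 fold change -0.50, edgeR adjusted p 0.0290), which was no longer called without either of ALDH_High libraries 2 and 3 or ALDH_Low libraries 2 and 3. The list had 4.76% called, beside 20.6% of all genes, and a median of -0.055. TTC5, the reader of the feedback, had 0.079 (SE 0.15, adjusted p 0.771).

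Of the 19 tested genes of tubulin modification, most of them for the tail, 2 were higher and 1 lower. That is 15.8% called, beside 20.6% of all genes. The list also holds the acetylation genes ATAT1, HDAC6 and SIRT2, which do not act on the tail, and SVBP, a partner protein and not an enzyme. TTL, which puts the last tyrosine back on alpha tubulin, had 93.9, 86.5 and 99.2 CPM in ALDH_High and 70.2, 61.5 and 70.4 CPM in ALDH_Low. It rose by 0.47 on the log2 scale (edgeR adjusted p 0.0143). TTLL1, the catalytic subunit of a polyglutamylase, rose by 1.13 (adjusted p 0.0178). AGBL5, a carboxypeptidase that trims glutamates, fell (-0.39, adjusted p 0.0376), but was not called with the replicate block (adjusted p 0.0503) or in limma on log2(TPM + 1). Without ALDH_Low library 2 none of these 3 was called, and without ALDH_High library 2 only TTL was. With each library left out in turn, AGBL5 was called only without ALDH_High library 1.

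Proteins that bind microtubules changed in both directions, with 2 higher and 6 lower of 15 tested and a median of -0.33. That is 53.3% called, beside 20.6% of all genes. STMN3, a neuronal stathmin that sequesters tubulin dimers, had 45.2, 37.4 and 35.5 CPM in ALDH_High and 7.44, 2.58 and 4.75 CPM in ALDH_Low. It rose by 2.98 on the log2 scale (SE 0.31, edgeR adjusted p 0.000117). STMN1, the more abundant stathmin of dividing cells, fell by 0.52 (edgeR adjusted p 0.00648), with 378 ± 38.8 TPM in ALDH_High and 522 ± 26.2 TPM in ALDH_Low (SD, n = 3); it is named after its values were seen. DPYSL5, a neuronal collapsin response mediator, rose (0.49, adjusted p 0.0309). DCLK1, a doublecortin-like kinase, had 1.10, 1.30 and 1.32 CPM against 7.47, 10.9 and 7.37 CPM (-2.78, SE 0.25, adjusted p 4.71e-05). MAP1B, a large neuronal microtubule-associated protein, fell by 1.99 on the log2 scale and DPYSL3 by 1.14. The lower genes numbered 4 to 7 when 1 library was left out, with 4 without ALDH_High library 2, ALDH_High library 3, ALDH_Low library 1 or ALDH_Low library 3. DPYSL5 was lost without ALDH_High library 2 or any 1 of the ALDH_Low libraries, and STMN3, DCLK1, MAP1B and DPYSL3 were called in all 6.

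Genes of microtubule ends and severing had 6 higher and 0 lower of 24 tested in edgeR (1 lower at an unadjusted p under 0.05, 0 lower in DESeq2 and limma), with a median of 0.16. That is 25.0% called, beside 20.6% of all genes. Those named by size were the mitotic kinesins KIF18B (1.02, SE 0.14, edgeR adjusted p 0.000592) and KIF18A (0.70, adjusted p 0.00810), which limit microtubule growth at plus ends, and MAPRE1, the plus-end protein EB1 (0.65, adjusted p 0.00176), each called whichever library was left out. The median was 0.038 without ALDH_Low library 3, 0.28 without ALDH_High library 1 and 0.30 without ALDH_Low library 2. Of 20 nucleation genes 4 were called, or 20.0%, near the 20.6% of all genes: 2 were higher, MZT1 (0.59) and TUBGCP6 (0.55) of the gamma-tubulin ring complex, and 2 lower, HAUS1 (-0.50) and HAUS4 (-0.40) of the augmin complex. HAUS4 was not called with the replicate block (edgeR adjusted p 0.0529). MZT1 alone among these 4 was called in all 6 such fits, and without ALDH_High library 1 the list had 5 higher and 1 lower.

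The mitosis list shares no gene with the others. It had 12 higher and 0 lower of 22 tested in edgeR and a median of 0.47. The share called was 54.5%, beside 20.6% of all genes. There were 0 lower at an unadjusted p under 0.05 and 0 in DESeq2 and limma. UBE2C rose by 1.76, CDK1, the kinase that starts mitosis, by 1.66, and TOP2A by 1.19 (edgeR adjusted p 5.60e-05, 5.60e-05 and 0.000168). Its summed level was 3802 to 4465 TPM in ALDH_High and 2495 to 2909 TPM in ALDH_Low. The part of this difference in that of any tubulin gene was not tested. In bulk RNA, fewer cells of a kind and less RNA per cell cannot be told apart.

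**Figure D4:**
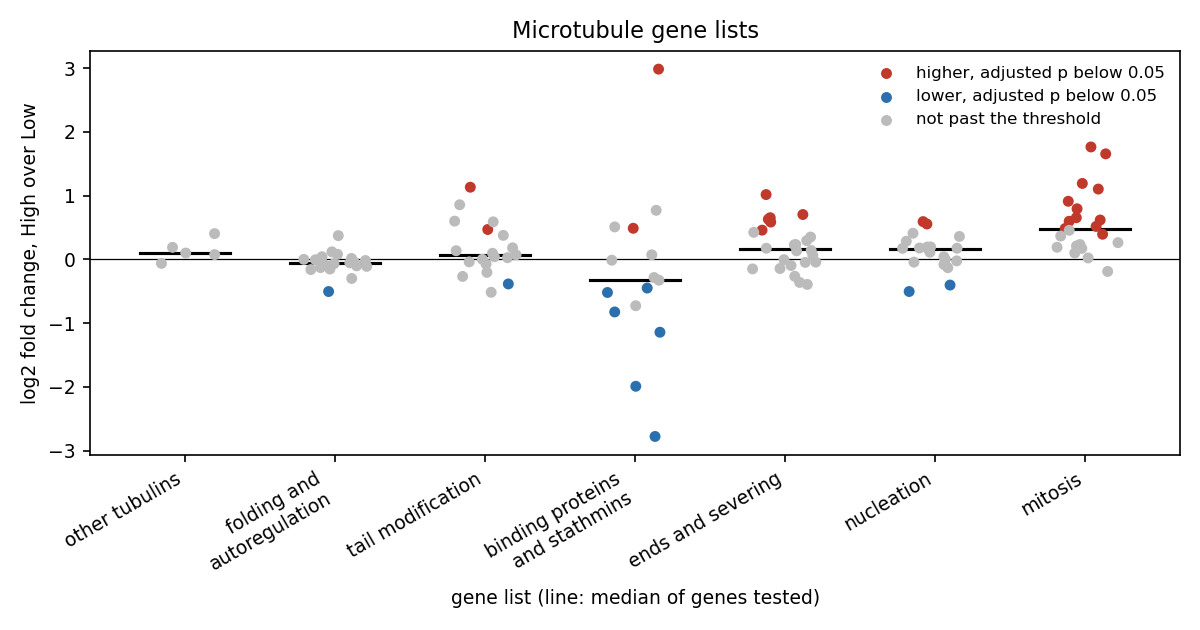
edgeR log2 fold changes of the tested genes in 7 lists, coloured by call, with a line at the median of each list. The mitosis list has 12 genes higher and 0 lower of 22 tested. The binding proteins and stathmins have 2 higher and 6 lower of 15 tested, beside 20.6% of all genes called. The folding list lies close to 0.

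Since several isotypes are known from neurons, 12 neuronal markers were read beside them. Their summed level was 18.6 to 28.0 TPM in ALDH_High and 18.2 to 23.9 TPM in ALDH_Low. NEFH and INA had 0 counts, and RBFOX3, ELAVL3, ELAVL4, NEFM and CHGA were too low to test. Of the 5 tested, GAP43, a growth cone protein, was higher (log2 fold change 1.42, edgeR adjusted p 0.0119) and was the only one called. This 1 of 5 is near the 20.6% of all genes called. The synaptic genes SYP, SYT1 and SNAP25 had 0.67, 0.63 and -0.52 and NEFL had -0.17, with a list median of 0.63 (adjusted p 0.210, 0.0964, 0.392 and 0.695). NEFL alone had 13.3 TPM in ALDH_High and 14.6 TPM in ALDH_Low, more than any other marker of the list. Leukocyte markers summed to 15.8 to 23.9 TPM in ALDH_High and 15.04 to 17.6 TPM in ALDH_Low, with PTPRC at 0.0883 and 0.0844 TPM. Fibroblast markers summed to 9.95 to 12.8 and 8.31 to 9.20 TPM, with COL3A1 near 0, and keratinocyte markers to 98.5 to 132 and 99.3 to 124 TPM, nearly all KRT10. Of 5 leukocyte markers tested, LYZ was called higher and CD14 and HCLS1 lower. Of 4 fibroblast markers tested PDGFRB was called lower, and of 3 keratinocyte markers KRT5, beside 20.6% of all genes called. The part of these markers in the tubulin results was not tested.

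The genes whose profile over the 6 libraries lay nearest to that of TUBB2B, among 14043 candidates with a mean of at least 1 CPM, were FAM198B, SHROOM4, NFATC2, CECR2 and AL121578.3. Likeness was the root mean square difference of log2 CPM after each gene's mean was subtracted, and it was 0.090, 0.13, 0.14, 0.14 and 0.19. Their log2 fold changes, 3.68, 3.56, 3.43, 3.49 and 3.58, resemble the 3.56 of TUBB2B by the choice itself. SHROOM4 is an actin-associated protein and NFATC2 a calcium-regulated transcription factor. TUBB2B was lowest in ALDH_Low library 2, as were all 5, which the choice by profile also favours.

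**Figure D5:**
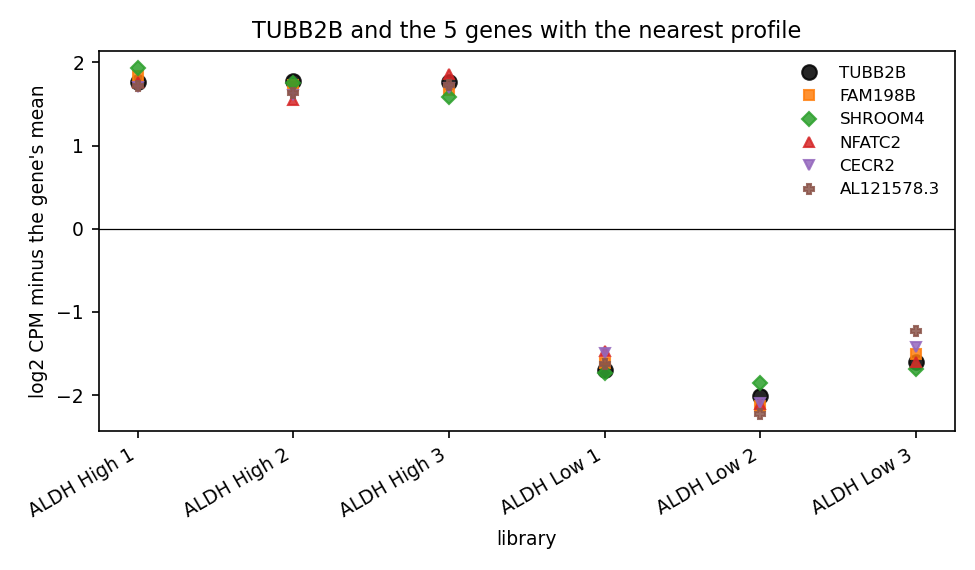
log2 CPM minus each gene's own mean in the 6 libraries for TUBB2B and the 5 genes with the nearest profile. The points of the 6 genes lie close together in every library, and all 6 are lowest in ALDH_Low library 2. The choice by profile favours both.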

How the data were processed

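RNA of the sorted cells went into TruSeq stranded mRNA libraries, per the labels' protocols. The submitters' processing notes name GRCh38, FastQC 0.11.3, STAR 2.5.1b, HTSeq 0.6.1 and DESeq2; their settings, strand use and annotation are not given in the sources used here. The authors deposited whole-number counts that behave as rounded estimated counts (133 to 177 genes per library have a count of 0 beside a TPM above 0), TPM values, which sum to the same total in every library, and log2 coefficients of their own DESeq2 model. From the table of coefficients 226 genes with shifted cells were left out.

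Counts were filtered with filterByExpr, scaled with TMM and tested with edgeR 4.0.16 (glmQLFTest, two-sided). The p-values were adjusted by Benjamini-Hochberg over the 17047 tested genes, with a threshold of 0.05, and SE is the log2 fold change over the square root of F. Sums and shares of TPM were compared with exact permutation tests. The members and lists were chosen with earlier results of these data known. Named genes are the 10 isotypes, the other tubulins, TTC5, up to 3 called genes per direction and list with the largest change and at least 1 CPM, and the 5 nearest profiles; marker and neighbouring genes were named after their values were seen. TBCE was not matched by name and not used. Alternatives were DESeq2 size factors, upper-quartile factors, no filter, 10 counts in every library, the replicate block, each library left out, DESeq2 1.42.0, and limma 3.58.1 on log2(TPM + 1) or log2(TPM + 0.1).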

Additional observations from a re-analysis of the deposited data

How the results depend on the processing

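The count of genes called was 2006 (1155 higher, 851 lower) in limma on log2(TPM + 1) with no TPM filter and 1930 (1060 and 870) at an adjusted p below 0.01, and lower genes were 1047 and 1051 in limma with pseudocounts 1 and 0.1. Leaving out a library gave 2488 to 4221 genes, 1306 to 2172 higher and 1073 (without ALDH_High library 2) to 2049 lower. In edgeR 34 of the 126 tested genes of the 7 lists, mitosis included, were called (24 higher, 10 lower). That is 27%, beside 20.6% of all genes. Limma with no TPM filter called 17 (13 higher, 4 lower), and limma on log2(TPM + 1) called 6 lower. Without a library 22 to 44 were called (17 to 32 higher, 4 to 12 lower), fewest without ALDH_High library 2 or ALDH_Low library 3. Isotypes other than TUBB2B called were 2 to 4, 2 to 3 higher and 0 to 1 lower. For limma the cause was not tested.

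Sign changes were those of uncalled isotypes near 0: TUBB6 (-0.0043) and TUBA1B (-0.048) with upper-quartile factors, TUBA1B (-0.011) under the replicate block, and, without a library, TUBB (-0.027 to 0.15), TUBB4B (-0.096 to 0.14), TUBB6 (-0.020 to 0.10) and TUBA1B (-0.13 to 0.093), with shares differing by -0.22 to 0.42 points for TUBB, -0.36 to 0.061 for TUBB4B and -0.14 to 0.17 for TUBB6. TUBB2B had log2 fold changes of 3.45 to 3.64 without a library and 3.05 in limma on log2(TPM + 1), where the pseudocount lowers it.

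The replicate block gave 3748 genes, 3 isotypes other than TUBB2B and 35 genes of the 7 lists. Among these it lost AGBL5 (adjusted p 0.0503) and HAUS4 (0.0529) and gained MAP1A (0.00932), CLIP2 (0.0453) and BUB1B (0.0370). It changed no call of an isotype. The deviations of same-numbered libraries correlated at 0.15, 0.076 and 0.11, each the best for its number, against -0.10 to 0.023 for the other combinations. Not all were above 0.1, so the numbers were not read as pairing, though this does not exclude it. With 10 to 55 counts in ALDH_Low, TUBB4A is the isotype that depth limits most.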

Other observations

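In TMM-scaled CPM, TUBB2B had 28.75, 28.86 and 28.82 in the ALDH_High libraries. The SD of 0.0535 CPM is 0.0554 times the 0.966 CPM that counting error alone gives on average for these counts. For the other 9 isotypes the ratio of SD to counting error lay between 1.85 and 53.1 over the 18 combinations of isotype and group, and for TUBB2B in ALDH_Low it was 1.29. On the other scales TUBB2B was not as even, with 20.2, 22.5 and 23.0 TPM and 0.225%, 0.303% and 0.295% of the summed TPM of the isotypes. The values were noticed after they were seen and were not tested.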
